A study of Mus musculus with 3 samples.

Results

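A set of 40 genes that build, regulate and anchor the actin cytoskeleton was followed in L929 cells, a mouse fibroblast line. The genes were listed by name and role: actins, tropomyosins, myosin II chains, filament turnover factors, calponins, cross-linkers, focal adhesion proteins, membrane linkers, vimentin and the transcription factor Srf. The list was drawn up with earlier results of these data known, so its comparison with all genes is not an independent one. Of the 40 genes, 39 were among the 20716 symbols with a count in the CBTi-seq table and all 40 among the 55295 symbols of the 3' tables. The exception was Myl9, which has no row in the CBTi-seq table, and that table lists no gene without a count.

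Control cells were set beside cells in which Rrm2, the small subunit gene of ribonucleotide reductase, had been knocked down. Both groups were profiled by CBTi-seq and by a second method aimed at transcript 3' ends. Individual cells were picked with a capillary, and cDNA was primed with oligo dT, extended by template switching and amplified over 20 PCR cycles, per the labels' protocols. One CBTi-seq sample held 10 control and 10 knock columns of counts, and the 3' method gave 1 library labelled control and 1 labelled knock, of 8 columns each. All groups share 1 cell line, and the sources used here do not say how Rrm2 was knocked down, in how many clones or cultures, or how long before sampling. The columns of a sample are not replicates, so no test was made, and every difference below describes these libraries only.

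Totals per column ran from 41570 to 846819 counts in CBTi-seq and from 399393 to 2496457 in the 3' libraries. Rrm2 itself was at 480.9 CPM (a gene's count scaled to a common library total) in the CBTi-seq control columns and 350.1 CPM in the knock columns, or 72.8% of control. The CBTi-seq columns of Rrm2 overlapped, at 356 to 652 CPM in control and 283 to 489 CPM in knock. In the 3' method Rrm2 went the other way: the library labelled knock held 148 CPM against 39.1 CPM under the control label, a 3.79-fold difference. The 3' columns did not overlap, at 29.2 to 49.6 CPM under the control label and 123 to 173 CPM under the knock label. The 3' label is therefore quoted as a label throughout, and no direction of a knockdown is read from it. Of 12 fibroblast markers, 7 reached 20 CPM in both CBTi-seq groups (Col1a1, Col1a2, Col5a1, Fn1, Pdgfrb, S100a4 and Sparc), while Thy1, Dcn and Lum had no count there.

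Actin filaments form from globular actin, are severed by cofilin, fed by profilin, capped at their ends and branched by the Arp2/3 complex. Tropomyosins coat them, non-muscle myosin II pulls on them, and alpha-actinins and filamins bind them together. In fibroblasts the contractile bundles end at focal adhesions, where talin and vinculin tie them to integrins. Free actin also holds back the cofactors of Srf, which drives many of these genes through a DNA element called the CArG box.

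Summed over all 40 genes, the set made up 1.02% of CBTi-seq counts in control and 1.10% in knock. Its 3' share was 0.605% under the control label and 1.12% under the knock label. There the 8 columns labelled control lay between 0.587% and 0.661% and the 8 labelled knock between 1.06% and 1.21%, so the groups of columns did not overlap. The CBTi-seq columns did overlap, with 0.845% to 1.35% in control and 0.930% to 1.37% in knock. Actb alone held 1953 CPM under the 3' control label and 4127 CPM under the 3' knock label. The shares are not alike between the assays. Cfl1 and Myl12a were at 900 and 379 CPM in CBTi-seq and at 0.185 and 0 CPM in the 3' method.

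A level of 20 CPM, averaged over both groups, was set as the limit for describing a ratio. Ranges in brackets after a log2 ratio are 95% intervals, which cover counting error and not the spread between columns. In CBTi-seq 33 of the 40 genes passed it, and Acta2, Myh10, Myl9, Myl12b, Tagln, Cnn1 and Srf did not. The 33 had a median log2 ratio of knock to control of 0.11, beside -0.05 over all 8391 genes that passed. By the point estimate 21 were higher and 12 lower in the knock columns, 63.6% higher against 44.7% of all genes. No gene of the set was 2-fold higher, where the share over all genes was 0.536%, and none was 2-fold lower, where that share was 2.42%. None had every knock column above every control column (0.0596% of all genes) or every knock column below (0.0715%). With so few genes past these limits anywhere, counts of 0 in the set are near the background.

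In the 3' method 26 of the 40 genes passed the limit, and Actn4 did so only through the library labelled knock. The 26 had a median log2 ratio of 0.85, beside 0.18 over all 5701 genes that passed. There were 23 higher and 3 lower in the library labelled knock, 88.5% higher against 58.8% of all genes. In that library 11 of the 26 were 2-fold higher (17.3% of all genes) and none was 2-fold lower (5.68% of all genes). All 8 columns labelled knock were above all 8 labelled control for 14 of the 26 (21.2% of all genes), and none had them all below (8.02% of all genes). Scaling by TMM moved the median of all genes by more than 0.1, to 0.02, with 12.8% of all genes then 2-fold higher and 8.57% lower. Under that scaling the set's median was 0.70, and 10 of its genes were 2-fold higher.

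Marker levels also differed between the 3' libraries. The summed level of the 12 fibroblast markers ran from 1144 to 1342 CPM over the columns labelled control and from 1965 to 2171 CPM over those labelled knock, with 3 and 6 of the 12 at 20 CPM or more. That of 9 muscle markers ran from 48.3 to 128 CPM and from 159 to 193 CPM (Acta1 and Actc1 without a count), and that of 5 haematopoietic markers from 57.7 to 115 CPM and from 128 to 185 CPM (Ptprc and Cd3e without a count). Summed levels of the 4 endothelial and the 5 epithelial markers overlapped between the libraries. The epithelial sum ran from 139 to 252 CPM over the columns labelled control and from 96.8 to 181 CPM over those labelled knock. Of the 5, only Cdh1 reached 20 CPM, and it did so in both libraries. In CBTi-seq the epithelial sum was 2.85 CPM in control and 0.855 CPM in knock, and Cdh1 had no count. The part of these marker differences in the ratios of the actin genes was not tested.

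**Figure D1:**
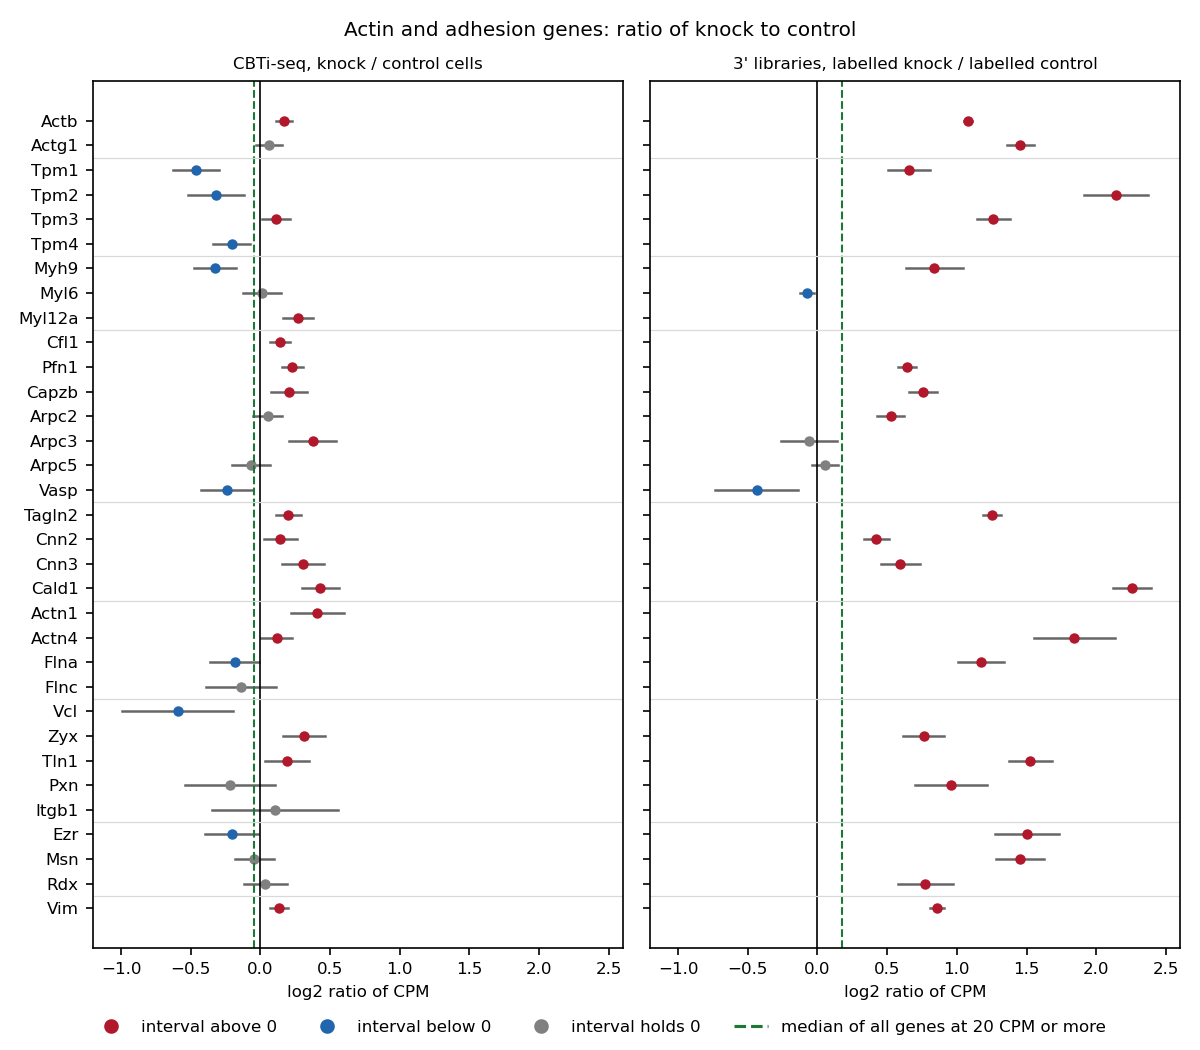
Log2 ratio of CPM, knock over control, for each gene at 20 CPM or more in CBTi-seq (left, 33 genes) and in the 3' libraries (right, 26 genes), with 95% intervals for counting error as bars and the median of all genes as a dashed line. The CBTi-seq points lie between -0.59 and 0.43, while 23 of the 26 3' points lie above 0 and reach 2.25.

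Of the 26 genes that passed the limit in both assays, 15 were higher in the CBTi-seq knock columns and in the 3' library labelled knock, and Vasp was lower in both. There were 8 lower in CBTi-seq and higher under the 3' knock label, and 2 the other way round. By the labels as deposited, the sign was the same for 61.5% of the set and for 50.8% of the 4602 genes that passed in both assays. Were the 3' labels turned, it would be the same for 10 of the 26, or 38.5%, and for 49.2% of the 4602, so no shared direction is read from these counts. Across genes, which are not independent, Pearson's r between the ratios of the assays was 0.04 in the set and 0.06 over all genes.

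Actb encodes beta-actin, the main cytoplasmic actin (chr5:142903115-142906754, minus strand, GRCm38). In the 3' libraries the columns labelled control had Actb at 1774 to 2339 CPM (median 1948), and those labelled knock at 3622 to 5031 CPM (median 4136). All columns labelled knock were above all columns labelled control. The summed libraries gave 1953 and 4127 CPM, a log2 ratio of 1.08 with a 95% interval for counting error of 1.05 to 1.11. In CBTi-seq the control columns of Actb ran from 677 to 6206 CPM (median 1412) and the knock columns from 788 to 2739.7 CPM (median 1548). The knock range lay inside the control range, and the highest value of all was that of the shallowest column, control column 1. The summed ratio there was 0.17 (0.11 to 0.23), but it was -0.16 when each column weighed the same and -0.01 without control column 9, the deepest one. The CBTi-seq data therefore gave no direction for Actb that held under each of these settings.

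Actg1, the gamma-actin that shares the cytoplasm with beta-actin, was the more unequal of the pair in the 3' method. Levels of Actg1 in the 3' columns spanned 96.3 to 189 CPM (median 138) under the control label and 289.6 to 525 CPM (median 392) under the knock label. Again the columns did not overlap, and the log2 ratio was 1.46 (1.36 to 1.56). CBTi-seq levels of Actg1 spanned 337 to 662 CPM (median 485) over the control columns and 207 to 627 CPM (median 496) over the knock columns, with knock column 1 apart from the other 9 at 207 CPM. The CBTi-seq log2 ratio of 0.06 (-0.03 to 0.16) held 0, and its sign turned when each column weighed the same. Acta2, the smooth muscle actin of activated fibroblasts, had 1 count in the CBTi-seq control columns, none in the knock columns, and 0 and 1 in the 3' libraries, under the floor of 3 counts in each.

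Tropomyosins lie along the actin helix and set which motors and severing proteins reach it. In CBTi-seq 3 of the 4 were lower in the knock columns and 1 was higher, each with an interval that did not hold 0, and their median log2 ratio was -0.26. Tpm1 had the largest of these ratios. The 10 control columns of CBTi-seq had Tpm1 at 24.1 to 333 CPM (median 188), and the 10 knock columns at 112 to 177 CPM (median 139). The knock columns lay inside the control range and showed no spread beyond counting error, while the control columns, the shallowest included, had a coefficient of variation of 45.9% beyond it. The log2 ratio of Tpm1 was -0.46 (-0.63 to -0.30), and leaving out each column in turn kept it between -0.56 and -0.38. Tpm2 stood at 125 CPM in control and 100.1 CPM in knock (log2 ratio -0.32, -0.52 to -0.11), with 0 to 159.9 CPM (median 124) over the control columns and 66.4 to 125 CPM (median 102) over the knock columns. Tpm4 followed with 278 CPM in control and 241 CPM in knock (log2 ratio -0.21, -0.34 to -0.08), and Tpm3 was the higher one at 434 and 469 CPM (log2 ratio 0.11, 0.01 to 0.21), although thinned columns gave -0.09.

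By the 3' method Tpm4 was below the limit at 4.24 and 3.71 CPM, and Tpm1, Tpm2 and Tpm3 were all higher under the knock label, with a median log2 ratio of 1.26. Tpm2 (chr4:43514711-43523765, minus strand) had the second largest ratio of the 26 genes. Each 3' column with the control label had Tpm2 within 15.0 to 35.9 CPM (median 24.1), and each with the knock label within 93.8 to 144 CPM (median 118). No column labelled control came within 50 CPM of the lowest column labelled knock, and the log2 ratio was 2.14 (1.91 to 2.37). Tpm3 went from 109 to 261 CPM (log2 ratio 1.26, 1.14 to 1.38), also without overlap. The Tpm1 columns did overlap, at 57.3 to 99.3 CPM and 95.3 to 146 CPM, with a log2 ratio of 0.66 (0.51 to 0.81).

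**Figure D2:**
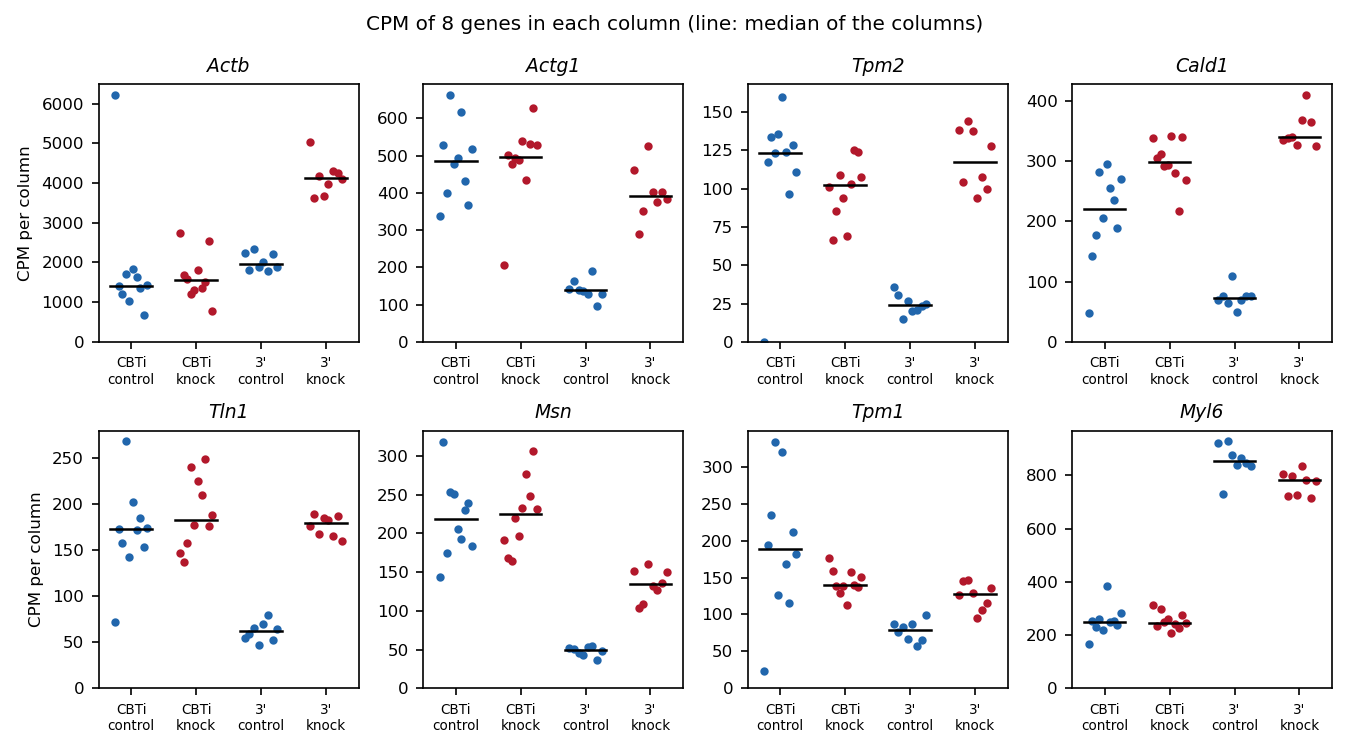
CPM of 8 genes in each column (points) with the median of the columns (line), for the CBTi-seq groups and the libraries of the 3' method by label; each panel has its own linear axis from 0. The 3' groups do not overlap for Actb, Actg1, Tpm2, Cald1, Tln1 and Msn, and the CBTi-seq groups overlap in all 8 panels.

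Of the 6 myosin II chains, Myh9 is the heavy chain that carries the motor, and Myl6, Myl9, Myl12a and Myl12b are light chains on its neck. Column by column, Myh9 lay at 161 to 348 CPM (median 185) in CBTi-seq control and 99.4 to 290.2 CPM (median 147) in knock. The ranges overlapped, and the log2 ratio was -0.32 (-0.47 to -0.17). Its 3' log2 ratio had the other sign, 0.84 (0.63 to 1.05), from 39.1 to 69.9 CPM, and reached 1.04 without control column 2. Myl12a, a regulatory light chain, was at 345 CPM in control and 416 CPM in knock in CBTi-seq (log2 ratio 0.27, 0.16 to 0.38).

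Myl6, the essential light chain, was among the 3 genes below 0 in the 3' libraries. Across 3' columns, Myl6 lay at 729 to 929 CPM (median 855) with the control label and 716 to 837 CPM (median 781) with the knock label. The ranges overlapped and the log2 ratio was -0.08 (-0.13 to -0.03), but its sign turned when columns were thinned to 50000 counts. In CBTi-seq it was 0.01 (-0.12 to 0.14). Myh10, the second non-muscle heavy chain, had 1 and 7 counts in CBTi-seq and was at 5.38 and 14.3 CPM in the 3' libraries, below the limit in both. Myl12b had 10 and 8 CBTi-seq counts and 0 and 5 counts by the 3' method, and Myl9, the smooth muscle form, had no count in either 3' library.

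Filament turnover and nucleation genes had a median log2 ratio of 0.14 in CBTi-seq (5 of 7 higher) and 0.29 in the 3' libraries (4 of 6 higher). Profilin, Pfn1, which speeds ATP exchange on actin monomers and hands them to growing ends, stood at 0.23 (0.15 to 0.31) in CBTi-seq and 0.64 (0.58 to 0.70) in the 3' libraries. The capping protein subunit Capzb was at 0.21 (0.08 to 0.34) and 0.76 (0.66 to 0.86). Cofilin, Cfl1, which severs old filaments, was at 858 CPM in control and 946 CPM in knock in CBTi-seq (log2 ratio 0.14, 0.07 to 0.21), and its log2 ratio was 0.01 without control column 9.

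The Arp2/3 complex starts a branch on the side of a filament, and its 3 listed subunits differed among themselves. In CBTi-seq the control columns of Arpc3 ran from 24.1 to 185 CPM (median 147) and the knock columns from 106 to 238 CPM (median 183). The ranges overlapped, the lowest value was from the shallowest column, and the log2 ratio was 0.38 (0.21 to 0.54). In the 3' libraries the columns labelled control had Arpc3 at 37.4 to 60.9 CPM (median 45.7), and those labelled knock at 37.9 to 69.3 CPM (median 48.7), and the log2 ratio of -0.06 (-0.26 to 0.14) held 0. The log2 ratios of Arpc2 were 0.05 (-0.05 to 0.15) and 0.52 (0.43 to 0.62), and those of Arpc5 were -0.07 (-0.20 to 0.07) and 0.06 (-0.04 to 0.15), where the sign of Arpc5 turned under TMM scaling in both assays.

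Vasp, which speeds filament growth at leading edges and adhesions, was the one gene lower in the CBTi-seq knock columns and under the 3' knock label. CBTi-seq levels of Vasp spanned 48.1 to 199 CPM (median 117) over the control columns and 57.5 to 169.9 CPM (median 97.5) over the knock columns. Levels of Vasp in the 3' columns spanned 14.0 to 50.1 CPM (median 28.0) under the control label and 10.4 to 33.7 CPM (median 18.8) under the knock label. The groups overlapped in both assays, and the log2 ratios were -0.24 (-0.43 to -0.05) and -0.44 (-0.73 to -0.14).

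Calponins, transgelins and caldesmon bind along filaments and restrain or stabilise them. The 4 that passed the limit, Tagln2, Cnn2, Cnn3 and Cald1, were higher in the CBTi-seq knock columns and under the 3' knock label, each with an interval above 0, except that Tagln2 was lower in CBTi-seq (-0.09) when columns were thinned to 50000 counts. Caldesmon, Cald1 (chr6:34598500-34775473, plus strand), had the largest log2 ratio of the 33 genes in CBTi-seq and of the 26 in the 3' libraries. The 10 control columns of CBTi-seq had Cald1 at 48.1 to 295 CPM (median 221), and the 10 knock columns at 217 to 341 CPM (median 299). There the lowest knock column was above 5 of the 10 control columns, and the log2 ratio was 0.43 (0.30 to 0.56). Each 3' column with the control label had Cald1 within 49.9 to 109.6 CPM (median 72.7), and each with the knock label within 325 to 409 CPM (median 339.8), with no overlap and a log2 ratio of 2.25 (2.12 to 2.39).

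Tagln2 was at 489 CPM in control and 562 CPM in knock in CBTi-seq (log2 ratio 0.20, 0.11 to 0.29) and at 359 and 856 CPM in the 3' libraries (log2 ratio 1.25, 1.19 to 1.32). The log2 ratios of Cnn2 were 0.14 (0.03 to 0.26) and 0.42 (0.33 to 0.51), and those of Cnn3 were 0.31 (0.15 to 0.46) and 0.59 (0.45 to 0.73). The smooth muscle members of the group had few counts: Cnn1 had 1 control count in each assay, and Tagln had 12 and 2 CBTi-seq counts and 0 and 4 counts by the 3' method. In the annotation 67.9% of the exonic bases of Tagln lie opposite other genes, and the sources used here do not say whether the counting used strand.

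Alpha-actinins bundle filaments and filamins cross them into networks. Column by column, Actn1 lay at 24.1 to 145 CPM (median 102) in CBTi-seq control and 53.1 to 194 CPM (median 134) in knock, and the log2 ratio was 0.41 (0.22 to 0.60). Its lowest value again came from control column 1, and the ranges overlapped. Actn4 was at 0.12 (0.01 to 0.23), Flna at -0.19 (-0.36 to -0.01) and Flnc, the muscle-type filamin, at -0.14 (-0.39 to 0.11).

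In the 3' libraries Actn4 had the third largest ratio of the 26 genes. Across 3' columns, Actn4 lay at 8.75 to 27.5 CPM (median 18.1) with the control label and 44.1 to 77.3 CPM (median 67.1) with the knock label. The columns did not overlap, and the log2 ratio was 1.84 (1.55 to 2.14), although Actn4 passed the level limit only through the library labelled knock. Flna was at 1.17 (1.01 to 1.34). Actn1 and Flnc stayed below the limit, with 6.37 and 29.1 CPM for Actn1 and 4.53 and 30.9 CPM for Flnc. Their 3' columns did not overlap either. Those of Actn1 lay at 2.92 to 12.5 CPM with the control label and 16.8 to 56.5 CPM with the knock label. Those of Flnc lay at 0 to 15.1 CPM and 18.4 to 37.6 CPM.

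Among focal adhesion genes, vinculin, Vcl (chr14:20929398-21033676, plus strand), had the lowest log2 ratio of the set in CBTi-seq. In CBTi-seq the control columns of Vcl ran from 0 to 57.3 CPM (median 31.0) and the knock columns from 0 to 39.4 CPM (median 25.1), and 1 control and 2 knock columns had no count. The ranges overlapped, and the log2 ratio was -0.59 (-0.99 to -0.20) from only 146 and 88 counts. It ran from -0.83 without knock column 10 to -0.44 without control column 5. In the 3' libraries Vcl was below the limit, with 9 and 105 counts, or 1.27 and 11.5 CPM, the opposite order. Opposite strand exons of Ap3m1 cover 25.5% of the exonic bases of Vcl.

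Talin, Tln1, which opens integrins and recruits vinculin, was higher in the CBTi-seq knock columns as summed and under the 3' knock label. In the 3' libraries the columns labelled control had Tln1 at 47.2 to 79.2 CPM (median 61.9), and those labelled knock at 160.0 to 189 CPM (median 179). The columns did not overlap, and the log2 ratio was 1.53 (1.37 to 1.68), against 0.19 (0.03 to 0.35) in CBTi-seq, where columns thinned to 50000 counts gave -0.41. Zyxin, Zyx, a sensor of strained filaments, lay at 154 to 224 CPM (median 179) over the CBTi-seq control columns and 164 to 295 CPM (median 205) over the knock columns. The ranges overlapped, and the log2 ratio was 0.31 (0.17 to 0.46) there and 0.76 (0.61 to 0.91) in the 3' libraries. The scaffold paxillin, Pxn, was at -0.22 (-0.54 to 0.10) and 0.96 (0.70 to 1.22), and its 3' value reached 1.02 when 1 column was left out. Itgb1, the beta subunit of most fibroblast integrins, was at 22.3 CPM in control and 24.0 CPM in knock in CBTi-seq (log2 ratio 0.11, -0.35 to 0.56). It stayed below the limit in the 3' libraries with 3.82 and 28.0 CPM, where the columns nevertheless did not overlap.

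Ezrin, moesin and radixin tie filaments to the plasma membrane. Levels of Ezr in the 3' columns spanned 20.2 to 40.1 CPM (median 29.6) under the control label and 60.6 to 93.8 CPM (median 83.6) under the knock label, without overlap, and the ratio was 2.83-fold. Msn was at 1.45 (1.28 to 1.63) and Rdx at 0.77 (0.58 to 0.97). CBTi-seq levels of Ezr spanned 72.2 to 195 CPM (median 120.1) over the control columns and 52.3 to 157 CPM (median 111) over the knock columns, with overlap, and the log2 ratio of Ezr had the other sign, -0.21 (-0.40 to -0.02). The CBTi-seq intervals of Msn (log2 ratio -0.04, -0.19 to 0.10) and Rdx (log2 ratio 0.04, -0.12 to 0.19) held 0, and the sign of Msn turned under TMM scaling.

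Vim encodes vimentin, the intermediate filament protein of fibroblasts. Each 3' column with the control label had Vim within 531 to 678 CPM (median 635), and each with the knock label within 1102 to 1225 CPM (median 1176). The columns did not overlap, and the log2 ratio was 0.86 (0.81 to 0.91). The 10 control columns of CBTi-seq had Vim at 657 to 1756 CPM (median 1173), and the 10 knock columns at 692 to 1666 CPM (median 1179). The ranges were nearly the same, with a log2 ratio of 0.13 (0.07 to 0.20) that was 0.06 when each column weighed the same and 0.01 without control column 9.

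Srf was measured too thinly for a ratio, with 47 and 35 CBTi-seq counts and 11 and 21 counts by the 3' method. Its binding motif was therefore looked up in the promoters of the set, from 250 bases before to 50 bases after the start, in the RefSeq table of GRCm38.p6. The table held 42 promoters of 37 of the 40 genes; Actb, Tagln and Pxn were not matched. A CArG box (searched by its standard consensus, which reads as a match on both strands) stood in 6 of the 42 promoters, or 14.3%, against 1.63% of all 32851 promoters in the table. The set was listed by role and holds Srf and genes that Srf is known to drive, so this is not an independent comparison. The 6 genes below were picked for holding a box, so that they share it is no result. Each box is in capitals, and each window is read 5' to 3' on the gene's strand.
Actg1, chr11:120348551-120348610, minus strand, box 90 bases before the start: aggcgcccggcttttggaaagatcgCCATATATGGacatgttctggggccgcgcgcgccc
Cnn2, chr10:79988519-79988578, plus strand, box 56 bases before the start: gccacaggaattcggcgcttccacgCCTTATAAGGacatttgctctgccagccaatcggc
Myl6, chr10:128493025-128493084, minus strand, box 50 bases before the start: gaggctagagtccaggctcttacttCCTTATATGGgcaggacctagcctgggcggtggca
Myl9, chr2:156775278-156775337, plus strand, box 161 bases before the start: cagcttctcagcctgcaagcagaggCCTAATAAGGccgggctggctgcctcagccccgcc
Srf, chr17:46556190-46556269, minus strand, boxes 82 and 62 bases before the start: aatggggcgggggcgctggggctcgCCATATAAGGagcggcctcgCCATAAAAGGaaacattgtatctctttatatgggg
Vcl, chr14:20929148-20929205, plus strand, box 227 bases before the start: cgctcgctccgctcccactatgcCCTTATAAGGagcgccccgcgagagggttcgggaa
The genes with these boxes did not share a ratio. In the 3' libraries Actg1 stood at 1.46, Cnn2 at 0.42 and Myl6 at -0.08 on the log2 scale, and in CBTi-seq they stood at 0.06, 0.14 and 0.01, with Vcl at -0.59. A match describes these letters only and says nothing of binding in L929 cells.

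Most genes of the set had a higher CPM in CBTi-seq than in the 3' method, with all columns of an assay summed. Of the 32 genes compared at the limit, 28 were higher in CBTi-seq, 87.5% against 78.4% of the 7598 shared genes. There were 13 of the 32 more than 2-fold higher in CBTi-seq (40.6% against 54.4% of all shared genes), and 2 were more than 2-fold higher in the 3' method (6.25% against 9.23%). Those 2 were Actb, at 1346 CPM in CBTi-seq and 3180.2 CPM in the 3' method, and Myl6, at 252 and 798 CPM.

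Cfl1, Myl12a and Tpm4 stood furthest from equal levels. Cfl1 (chr19:5490455-5495201, plus strand) had 6632 counts in CBTi-seq, or 899.99 CPM, and 3 counts in the 3' method, or 0.185 CPM. That is a ratio of 4869 with an interval of 1665 to 23615. Myl12a (chr17:70993656-71002878, minus strand) had 2792 CBTi-seq counts and no 3' count, a ratio of 2049.7 when a floor of 3 counts over both 3' libraries stands in for 0, with a lower 95% limit of 1666. Tpm4 (chr8:72134975-72153142, plus strand) was at 261 and 3.94 CPM, a 66.1-fold ratio (51.5 to 86.2). Each of the 3 genes has a processed pseudogene of near-identical sequence in the annotation. For Cfl1 that is Gm6180, at 98.8% identity, with 264 and 252 CBTi-seq counts and 8 and 14 counts by the 3' method. The copy of Myl12a, Gm6517, had 16 and 18 counts and then none, and that of Tpm4, Gm7809, had 22 and 33 and then none. Myl12a also shares 13.8% of its exonic bases on the same strand with Myl12b, and 1 of the IDs annotated as Myl12b lies wholly over exons of both. The sources used here do not say how reads that map to more than 1 place were treated.

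Other genes of the set share sequence too. Actg1 has 6 near-identical copies in the annotation, which held 329 and 367 counts in CBTi-seq beside 1811 and 1717 at Actg1 itself, and 2 and 37 counts in the 3' libraries. For Tpm3 a single copy held 163 and 198 CBTi-seq counts and 88 and 223 counts by the 3' method. Myl6 has 5 copies, with 86 and 77 counts in CBTi-seq and 82 and 88 counts in the 3' libraries. The counts of these genes are uncertain by an amount that the copies do not give, since the treatment of shared reads is not stated.

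**Figure D3:**
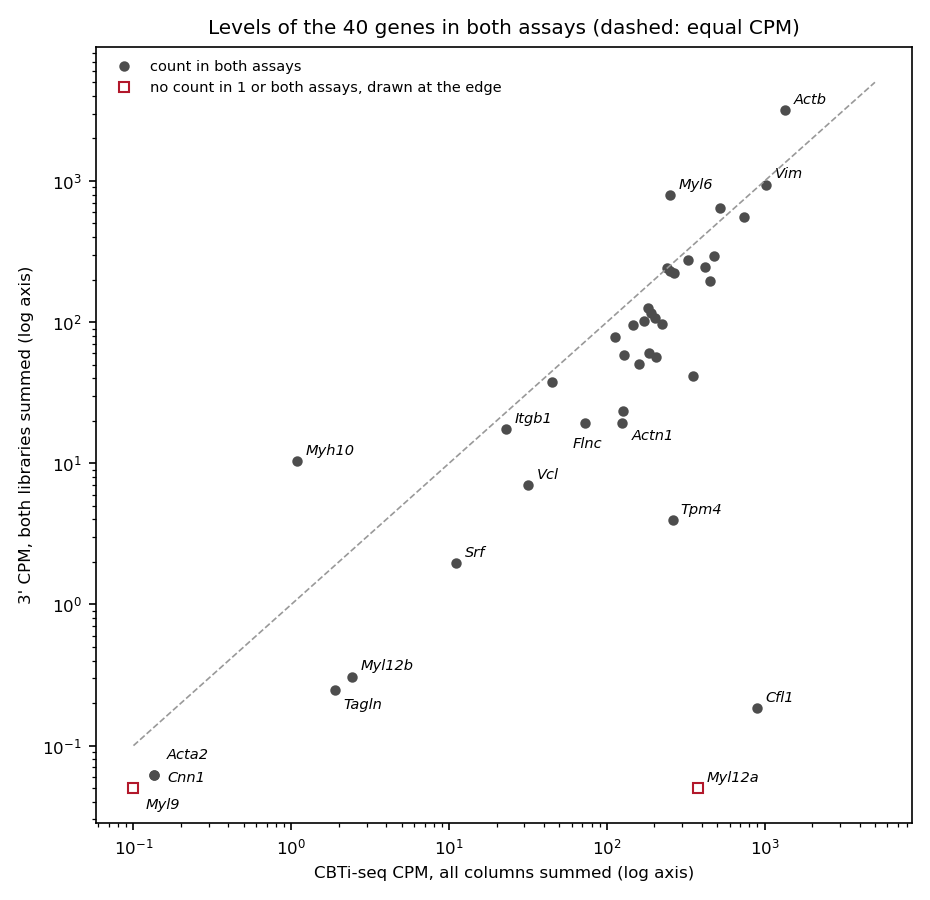
CPM of each gene with all columns of an assay summed, CBTi-seq on the x axis and the 3' libraries on the y axis, both log scales; squares are genes without a count in an assay, drawn at the edge, and the dashed line marks equal levels. Cfl1 and Myl12a lie far below the line, and Actb and Myl6 lie above it.

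Across the 20 CBTi-seq columns, 4 genes with the highest counts of the set followed column depth. The total count of the columns spanned 20.4-fold, but the count of Actb spanned only 2.41-fold, from 258 in the shallowest column to 622, and was 573 in the deepest. No gene in the table had more than 638 counts in a column, and Actb was among the 10 highest genes in 17 of the 20. Its CPM went down as the total went up, with a Spearman rank correlation of -0.94, and Vim (-0.95), Cfl1 (-0.93) and Pfn1 (-0.69) did the same. Without the shallowest column these were -0.93 for Actb, -0.94 for Vim, -0.92 for Cfl1 and -0.85 for Pfn1. Correcting the counts for molecular tags (UMIs) drawn more than once, with the smaller of the tag numbers tried, gave -0.86, -0.85, -0.91 and -0.55.

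Among the other genes of the set the rank correlation had either sign. Without the shallowest column it was -0.62 for Cald1, -0.54 for Tagln2 and -0.51 for Myl12a. Over all 20 columns it was 0.72 for Vasp, 0.69 for Ezr and 0.53 for Actn4, whose count ran from 7 to 292. The median over the 33 genes was 0.13, with 12 below 0, beside 0.23 over all 8391 genes, with 1829 below 0. CPM and total share the total, so these values are descriptions. Actb in the 3' libraries had rank correlations of -0.38 over the 8 columns labelled control and -0.05 over the 8 labelled knock. Under that correction for repeated tags the summed CBTi-seq log2 ratio of Actb was 0.18.

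**Figure D4:**
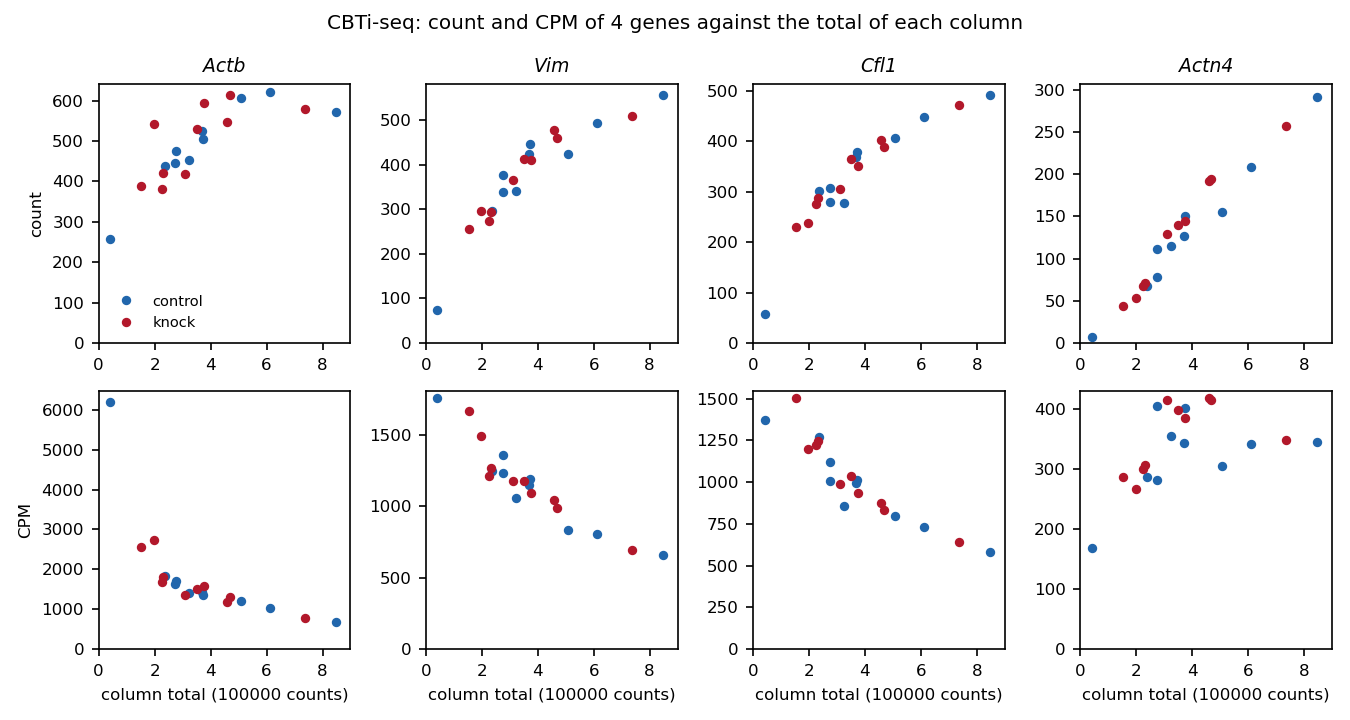
Count (top) and CPM (bottom) of Actb, Vim, Cfl1 and Actn4 in each of the 20 CBTi-seq columns against the column's total count, with control and knock columns in different colours. Actb counts stay between 258 and 622 over a 20.4-fold span of totals while Actn4 counts run from 7 to 292.

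The wider actin pathway was described by 4 lists of genes outside the set, at the same limit of 20 CPM and to be read beside the medians of all genes above. Single genes are given by their log2 ratios. For nucleation and branching factors, CBTi-seq had 8 higher and 8 lower of 16 (median log2 ratio -0.05), and the 3' libraries had 12 higher and 4 lower of 16 (0.22). The extremes were the N-WASP gene Wasl (-0.53) and the Arp2/3 subunit Arpc5l (0.35) in CBTi-seq, and the WAVE subunit Brk1 (-0.34) and the formin Fmnl2 (2.04) in the 3' libraries, where Fmnl2 passed the limit only through the library labelled knock. For filament turnover, capping and bundling, CBTi-seq had 4 higher and 15 lower of 19 (-0.15), and the 3' libraries had 12 higher and 2 lower of 14 (0.88). Here gelsolin, Gsn, which severs and caps filaments, had the largest 3' ratio, 2.72 (2.54 to 2.90), from 39.6 to 260.4 CPM, while its CBTi-seq ratio was -0.10 (-0.23 to 0.03). The severing factor Dstn (0.36) was the highest in CBTi-seq, and Cap1, which recycles monomers, was the lowest in the 3' libraries (-0.22).

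Integrin and plaque genes were 7 higher and 14 lower of 21 in CBTi-seq (-0.14) and 8 higher and 7 lower of 15 in the 3' libraries (0.19). Tln2, the second talin, was the lowest in CBTi-seq at -1.13 (-1.56 to -0.71) and passed the limit only through the control columns, at 42.5 and 19.4 CPM. Highest was Tes, a zyxin partner, at 0.77 (0.63 to 0.91), from 186 to 318 CPM. Tes had no count in the 3' libraries, where the adaptor Lims1 (-0.98) and the tensin Tns1 (2.13) were the extremes and Tns1 passed only through the library labelled knock.

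The last list held the MRTF cofactors of Srf and inducible targets, and few of them reached the limit. CBTi-seq had 3 higher and 2 lower of 5 (median 0.03), and 2 of the 3 higher were the cofactors themselves, Mrtfa (0.93) and Mrtfb (0.03). Of the targets the extremes were the matricellular gene Ccn1 at -0.68 (-0.90 to -0.46) and the LIM protein gene Fhl2 at 1.03, from 15.8 to 32.2 CPM. The 3' libraries had 2 higher and 2 lower of 4 (-0.24), Mrtfa included (0.20), with Ankrd1, a nuclear cofactor, at -2.19 (-2.44 to -1.95) and Fhl2 at 0.50 (0.18 to 0.82). Fhl2 passed the limit only through the knock group in both assays, and Ankrd1 in the 3' libraries only through the one labelled control. Mrtfa passed in CBTi-seq only through the knock columns, at 16.1 CPM in control and 30.5 CPM in knock. In the 3' libraries Ccn1 was below the limit, at 2.69 CPM under the control label and 35.6 CPM under the knock label.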

How the data were processed

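The deposited values are raw whole-number counts: a CBTi-seq table by symbol whose name refers to UMIs, and 2 3' tables by Ensembl ID. The submitters' processing notes name STAR 2.7.11b, Picard and FastQC, and the builds GRCm38 and GRCh38 with no role. How genes were counted, on which strand and with which filters, and whether 3' counts are reads or UMIs, is not stated there. Of 55402 3' IDs, 55141 matched GENCODE vM21, the source of coordinates (1-based). Columns of a group were added up and scaled to CPM. Levels and ratios carry exact 95% intervals (Poisson, conditional Clopper-Pearson) that cover counting error only, so they are too narrow for the spread between columns and, where counts are reads, for counting too.

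With 1 sample per group no test was made. Ratios are described at a mean of 20 CPM, and 2-fold means a log2 ratio of 1. The floor used for a count of 0 (3 counts, below the exact upper limit of the intervals) is 0.777 and 0.855 CPM in the CBTi-seq groups and 0.424 and 0.327 CPM in the 3' libraries. The gene set, lists and rules were chosen with earlier results of these data known. Named column by column were the actins, the 4 largest ratios in each direction and assay, and the largest of each other role; of the pathway lists, the extremes, with some items not reported here. Copies are annotated genes at 95% identity over at least 200 bases and 50% of the copy. The calculation of the ratios was checked on simulated counts that held counting error only, so that check says nothing of the spread between columns. Python 3.11.15, R 4.3.3, edgeR 4.0.16 (TMM factors) and DESeq2 1.42.0 (median-of-ratios factors) were used. Alternatives were scaling, column depth, tag collisions, the level limit and leaving out each column.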

Additional observations from a re-analysis of the deposited data

How the results depend on the processing

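Of the values for the whole set under an alternative, 5 were marked as moved and 151 were not. A value that was not marked may still have shifted. The 3' median log2 ratio of 0.85 was 0.70 with TMM factors and 0.69 with median-of-ratios factors, and the cause was not tested. The CBTi-seq count of genes 2-fold lower, 0 at first, was 1 (Vcl, at -2.00) with columns thinned to 50000 counts, where fewer counts remain. With no level limit it was 1, and the count 2-fold higher was 1 too, since that setting lets in genes of few counts. Other values shifted as well. With no level limit the 3' median was 0.96 and 16 of 33 genes were 2-fold higher, and TMM factors gave a CBTi-seq median of 0.18, beside 0.11. Leaving out each column in turn gave a median of 0.03 to 0.12 in CBTi-seq and 0.82 to 0.89 in the 3' method. The counts of 2-fold genes then stayed at 0 in CBTi-seq, at 11 to 12 higher in the 3' method and at 0 lower. Of the values of single genes, 101 were marked as moved and 378 were not. In CBTi-seq the sign changed for 7 of 33 genes when 1 column was left out (Actb, Actg1 and Pxn without control column 9, Msn without control column 2, Itgb1 without knock column 8, Rdx without knock column 5 or 10, and Myl6 without any 1 of 5 columns) and for 8 with thinned columns (Actg1, Tpm3, Arpc5, Tagln2, Flnc, Tln1, Pxn and Itgb1). In the 3' method it changed for 1 of 26 when a column was left out (Arpc3, without control column 2) and for 2 with thinned columns (Myl6 and Arpc3). No paired analysis was possible because no group has more than 1 sample (both CBTi-seq groups are columns of the same one), and the numbers of the columns name no shared source. Depth limits Vcl, Itgb1 and Srf in CBTi-seq and the 14 genes below the limit in the 3' method.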

Other observations

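The 29 genes of the set at 100 CPM or more in CBTi-seq were compared in pairs, on the log2 of CPM plus 1. Values were centred within each group, over the 19 columns without the shallowest. The median Pearson r was 0.09, beside 0.01 over pairs of all 2793 genes at that level. The 6 pairs among Actb, Vim, Cfl1 and Pfn1 had r of 0.92 to 0.95, above every other pair of the set, and these are the 4 genes named above whose CPM went down with column depth. Next came Cnn3 with Tln1 at 0.70 and Cnn2 with Tln1 at 0.67. All columns share the scaling to their totals, so these values carry no p. Spread beyond counting error in CBTi-seq differed between genes of the set. Its coefficient of variation was 84.9% and 35.9% for Actb in the control and knock columns, 25.8% and 36.8% for Myh9, 32.7% and 31.4% for Vasp, and 1.38% and 6.30% for Tpm3. Unlike the pairs, these values include the shallowest column, control column 1. Actb was at 6206 CPM there and at 1843 CPM or less in the other control columns, so its 2 values do not compare the spread of the groups.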
